A study of Homo sapiens with 8 samples.

Results

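In the HT line, 468 short stretches of chromatin carried trimethylated lysine 27 of histone H3 (H3K27me3) at places where the SUDHL6 line carried trimethylated lysine 4 of histone H3 (H3K4me3) and no H3K27me3. They were chosen from measured values: autosomal HT H3K27me3 islands narrower than 10000 bp that overlapped no SUDHL6 H3K27me3 island and overlapped a SUDHL6 H3K4me3 island by 1 bp or more. An island is a stretch of the genome in which sequenced fragments pulled down by an antibody are enriched. The 468 discordant islands, as they are called below, were taken from 16919 islands in the HT H3K27me3 list, of which 16851 were autosomal and 16481 of those were narrower than 10 kb. Of these, 13097 had no SUDHL6 H3K27me3, and the 12629 that met no SUDHL6 H3K4me3 either are called the remaining HT-only islands.

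HT and SUDHL6 are established human cell lines, both from diffuse large B cell lymphomas. They were kept in medium with serum and measured without treatment. ChIP-seq, the sequencing of DNA bound to a protein or histone mark that an antibody pulls down, was done in both lines for H3K27me3, EZH2 and H3K4me3, with 1 library per line and antibody. As a background fact that the labels do not state, SUDHL6 is known to carry an activating mutation of EZH2. Each group is 1 library of 1 line, so no difference between the lines was tested, and line and library cannot be told apart.

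H3K27me3 is written by Polycomb repressive complex 2, whose catalytic subunit is EZH2, and marks repressed chromatin, often at promoters of developmental genes rich in CpG. H3K4me3 is written by enzymes of the COMPASS family and marks active or poised promoters. Both marks can lie at the same promoter, a state called bivalent, and a promoter that carries H3K4me3 in one cell type can carry H3K27me3 in another. Gene positions on hg19, the build of the lists, were not used here, so the islands are given by position and not by gene.

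The discordant islands carried HT EZH2 far more often than the remaining HT-only islands did. HT EZH2 overlapped 251 of the 468 discordant islands, or 53.6% (exact Clopper-Pearson 95% interval 49.0 to 58.2%), and 536 of the 12629 remaining HT-only islands, or 4.24% (3.90 to 4.61%). Over all 13097 islands the share was 6.01%. The remaining islands were mostly away from H3K4me3. Of the 77 of them with HT H3K4me3, 27 held HT EZH2, or 35.1% (24.5 to 46.8%), against 4.06% of the 12552 without it. SUDHL6 EZH2 was found at 32 discordant islands, or 6.84% (4.72 to 9.52%), and at 0.958% (0.796 to 1.14%) of the remaining ones, with 1.17% over all. HT H3K4me3 lay at 158 discordant islands, or 33.8% (29.5 to 38.2%), and at 0.610% (0.481 to 0.761%) of the remaining ones, with 1.79% over all. None of these 3 lists was used to choose the islands, but H3K4me3 islands of the lines often coincide, so a set chosen over SUDHL6 H3K4me3 meets HT H3K4me3 more readily. The intervals cover counting error only. With an overlap of 50% of the island required, 223 discordant islands were left and HT H3K4me3 lay at 21.5% of them. The 50% was also asked of HT H3K4me3, which lay at 0.334% of the remaining islands under this setting. The stricter call and the changed set of islands cannot be told apart here. Any overlap with SUDHL6 H3K27me3 still excluded an island under this setting. Among the 50% of islands that scored highest in each list, 186 were left and HT H3K4me3 lay at 15.6%.

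The same 468 islands moved by fixed distances of 0.5 to 2 Mb to either side met the other lists rarely. Over the 8 placements, HT EZH2 was met by 0.427 to 1.496% of the moved islands, HT H3K4me3 by 1.28 to 3.42% and SUDHL6 EZH2 by 0.214 to 1.71%. Each share at the true positions lay above the highest of its 8 placements. The moved islands were held neither to SUDHL6 H3K4me3 nor to HT H3K27me3, so a list that favours either had to meet them less often. HT H3K4me3 overlapped 59.2% of all autosomal SUDHL6 H3K4me3 islands, so its excess over the placements follows from the rule. Of the SUDHL6 H3K4me3 islands away from discordant islands, 6.09% overlapped HT EZH2 and 1.75% SUDHL6 EZH2. The number of discordant islands itself was only modestly above the moved placements. Of the 13097 HT-only islands, 3.57% overlapped SUDHL6 H3K4me3 where they stood, and 2.79 to 3.25% (366 to 425 islands) did so after the moves. That overlap was part of the rule and is given as a description. The moved islands were not screened again for SUDHL6 H3K27me3.

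**Figure D1:**
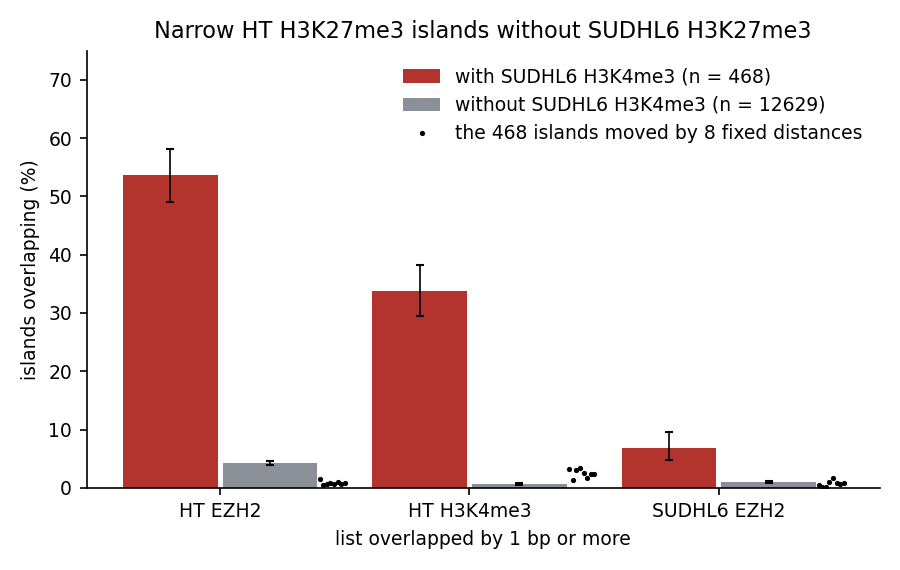
Share of narrow autosomal HT H3K27me3 islands without SUDHL6 H3K27me3 (y axis, percent) that overlap HT EZH2, HT H3K4me3 or SUDHL6 EZH2 (x axis), with exact 95% intervals. Discordant islands (red) reach 53.6%, 33.8% and 6.84%, the remaining HT-only islands (grey) stay below 5%, and black points, the discordant islands moved by the 8 fixed distances, all lie below 4%.

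The HT EZH2 share was higher among wide discordant islands and among those of high score per kb, and it was above that of the remaining HT-only islands in each class. The score is the authors' own value per island, and it is used here only within a list. Discordant islands of 1 to 2 kb held HT EZH2 in 38.7% (30.1 to 47.9%) of cases and those of 4 to 10 kb in 65.9% (57.2 to 73.9%). Remaining HT-only islands held it in 2.09% (1.69 to 2.56%) of cases at 1 to 2 kb and in 8.63% (7.47 to 9.90%) at 4 to 10 kb. Below 1 kb there were 15 discordant islands, of which 3 held HT EZH2. All HT-only islands were also ranked by score per kb and cut into 4 classes of near-equal size. The highest class held HT EZH2 in 65.0% (59.1 to 70.6%) of its 283 discordant islands and 10.6% (9.57 to 11.8%) of its 3054 others. In the lowest class the shares were 32.4% (18.0 to 49.8%) of 37 discordant islands and 1.35% (0.975 to 1.81%) of 3197 others.

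**Figure D2:**
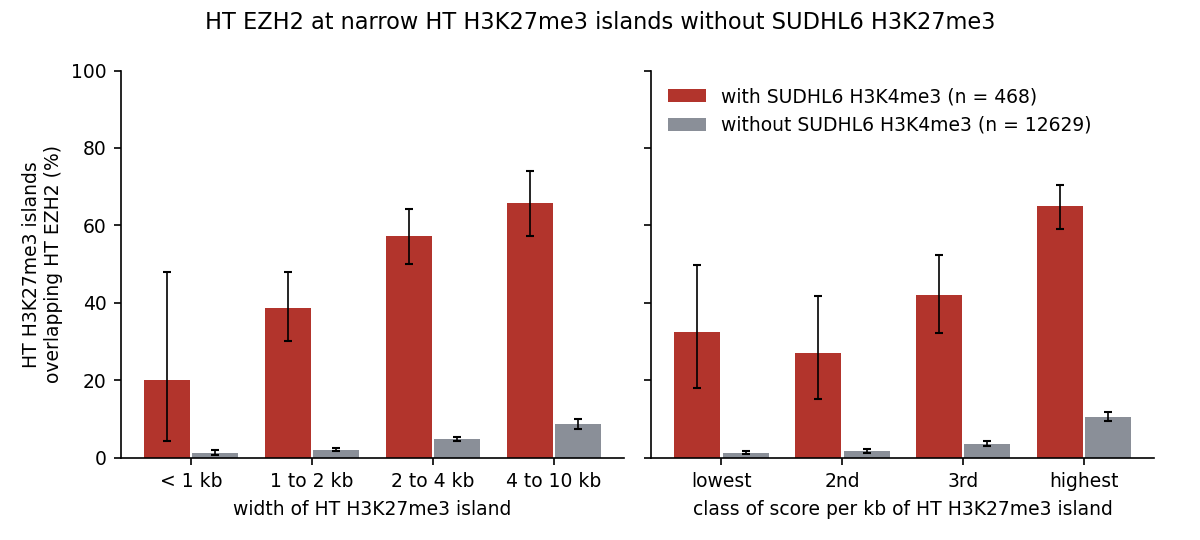
Share of HT H3K27me3 islands overlapping HT EZH2 (y axis, percent, exact 95% intervals) by island width (left) and by class of score per kb (right, 4 classes). Discordant islands (red) lie above the remaining HT-only islands (grey) in all 8 classes, with 65.9% against 8.63% at 4 to 10 kb.

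Where HT EZH2 was present it covered most of the discordant island. The median coverage was 87.5% of the island (quartiles 63.4 and 100%), or 2550 bp, and 93 of the 468 islands lay wholly inside HT EZH2. Counted from the other side, 245 of 2508 autosomal HT EZH2 islands, or 9.77% (8.63 to 10.998%), overlapped a discordant island. Those 245 had a median width of 4050 bp and a median score per kb of 17.8, against 3600 bp and 14.7 for the other 2263 HT EZH2 islands. Discordant islands without HT EZH2 were a median of 287 kb from the nearest HT EZH2 island.

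Among discordant islands, HT EZH2 was found both with and without HT H3K4me3. It was present at 57.0% (48.9 to 64.8%) of the 158 discordant islands with HT H3K4me3 and at 51.9% (46.2 to 57.6%) of the 310 without it, intervals that overlap. Among the remaining HT-only islands the shares were 35.1% (24.5 to 46.8%) with HT H3K4me3 and 4.06% without it. Both were present at 90 discordant islands, HT EZH2 alone at 161, HT H3K4me3 alone at 68 and neither at 149. The 149 islands with neither were narrower (median 2400 bp against 2850 bp for all 468) and had a median score per kb of 22.5, against 23.9 for all.

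HT EZH2 was also common at HT H3K27me3 islands over SUDHL6 H3K4me3 that had H3K27me3 in both lines. Among 131 narrow HT H3K27me3 islands that met both SUDHL6 H3K27me3 and SUDHL6 H3K4me3, HT EZH2 was present at 55.7% (46.8 to 64.4%) and SUDHL6 EZH2 at 22.9% (16.0 to 31.1%). Among 3253 that met SUDHL6 H3K27me3 and no SUDHL6 H3K4me3, HT EZH2 was present at 10.9% (9.86 to 12.0%) and SUDHL6 EZH2 at 15.2% (13.97 to 16.5%). The HT EZH2 intervals of the 468 and the 131 islands overlap, and those of SUDHL6 EZH2 do not.

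The SUDHL6 H3K4me3 islands under discordant islands had an HT H3K4me3 island less often than those elsewhere. The 468 discordant islands met 459 SUDHL6 H3K4me3 islands in 472 pairs. Of these, 13 held 2 discordant islands, and 4 discordant islands spanned 2 of them. HT H3K4me3 overlapped 177 of the 459, or 38.6% (34.1 to 43.2%), and 7690 of the other 12822 autosomal SUDHL6 H3K4me3 islands, or 60.0% (59.1 to 60.8%), with 59.2% over all 13281. Among the 50% of islands that scored highest in each list, HT H3K4me3 lay at 19.5% of the sites at discordant islands and at 68.5% of those elsewhere. A further setting chose the discordant islands by an overlap of 50% of the HT H3K27me3 island, which left 223. It also counted HT H3K4me3 only where it covered 50% of the SUDHL6 H3K4me3 island. HT H3K4me3 then lay at 26.0% of the sites at discordant islands and at 52.3% of those elsewhere. Among those elsewhere, 147 lay under some other HT H3K27me3 island, and HT H3K4me3 was present at 41.5% (33.4 to 49.9%) of these, an interval that overlaps that of the 459.

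The share was lower at discordant islands in each width class of the SUDHL6 H3K4me3 island and in the 3 upper classes of its score per kb. For H3K4me3 islands of 1 to 2 kb the shares with HT H3K4me3 were 32.2% (25.4 to 39.6%) at discordant islands and 53.4% (52.0 to 54.7%) elsewhere. At 4 kb or wider they were 55.4% (43.4 to 66.98%) at discordant islands and 73.1% (70.6 to 75.5%) elsewhere. The islands were again cut into 4 classes by score per kb. The highest class had HT H3K4me3 at 43.1% (31.4 to 55.3%) of 72 islands at discordant islands and at 94.5% (93.7 to 95.3%) of 3254 elsewhere. In the lowest class the order turned, with 17.6% (6.76 to 34.5%) of 34 at discordant islands and 6.86% (6.01 to 7.79%) of 3193 elsewhere, intervals that overlap.

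**Figure D3:**
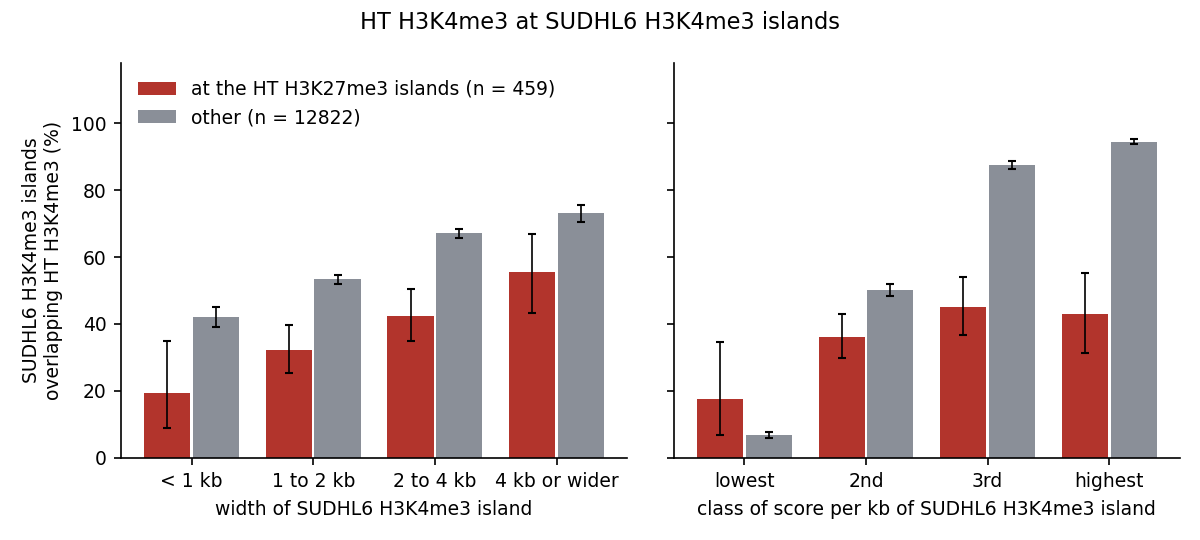
Share of autosomal SUDHL6 H3K4me3 islands that overlap HT H3K4me3 (y axis, percent, exact 95% intervals) by width (left) and by class of score per kb (right, 4 classes) of the SUDHL6 H3K4me3 island. Islands at discordant HT H3K27me3 (red) lie below the others (grey) in every class except that of lowest score, and in the highest the values are 43.1% and 94.5%.

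The SUDHL6 H3K4me3 islands under discordant islands were of ordinary width and seldom of the weakest kind. Their median width was 2100 bp (quartiles 1500 and 3150 bp), the same median as that of the others, and their median score per kb was 30.4 against 32.1. Discordant islands met 1.05% of the SUDHL6 H3K4me3 islands in the lowest of the 4 classes of score per kb, 6.43% in the next, 4.05% in the one after and 2.16% in the highest.

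HT H3K4me3 also covered less of these sites base by base. Of the 699 kb of SUDHL6 H3K4me3 inside discordant islands, HT H3K4me3 covered 21.1%. Of the 602 kb of the same SUDHL6 islands that lay outside the discordant islands it covered 34.1%, and of the 30882 kb of other autosomal SUDHL6 H3K4me3 it covered 46.6%. HT EZH2 went the other way, with 58.5% inside, 32.6% outside and 5.52% elsewhere.

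Where both lines had H3K4me3 at such a site, the HT island was more often the narrower one. Among 165 pairs in which 1 HT island met 1 SUDHL6 island, the median log2 width ratio, HT over SUDHL6, was -0.25 (quartiles -0.89 and 0.35), and HT was narrower in 96, equal in 10 and wider in 59. The median widths were 1950 bp in HT and 2250 bp in SUDHL6. In 7455 pairs elsewhere the median log2 ratio was 0.00 (quartiles -0.49 and 0.50), with medians of 2250 bp in both lines. Sites were chosen through the SUDHL6 island and not through the HT one. Width raises the odds of being chosen, so the ratio is not free of the rule. Of the 154 HT H3K4me3 islands at discordant islands, 153 overlapped a SUDHL6 H3K4me3 island. The rule put each discordant island over SUDHL6 H3K4me3, so this count was largely set by the choice.

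HT EZH2 was common at these SUDHL6 H3K4me3 sites with and without HT H3K4me3. HT EZH2 overlapped 56.5% (48.9 to 63.9%) of the 177 sites with HT H3K4me3 and 52.1% (46.1 to 58.1%) of the 282 without it. Among the other SUDHL6 H3K4me3 islands the shares were 8.47% (7.85 to 9.11%) with HT H3K4me3 and 2.53% (2.12 to 3.001%) without it. SUDHL6 EZH2 was at 7.63% (5.37 to 10.4%) of the sites and at 1.75% (1.53 to 1.997%) of the other SUDHL6 H3K4me3 islands.

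**Figure D4:**
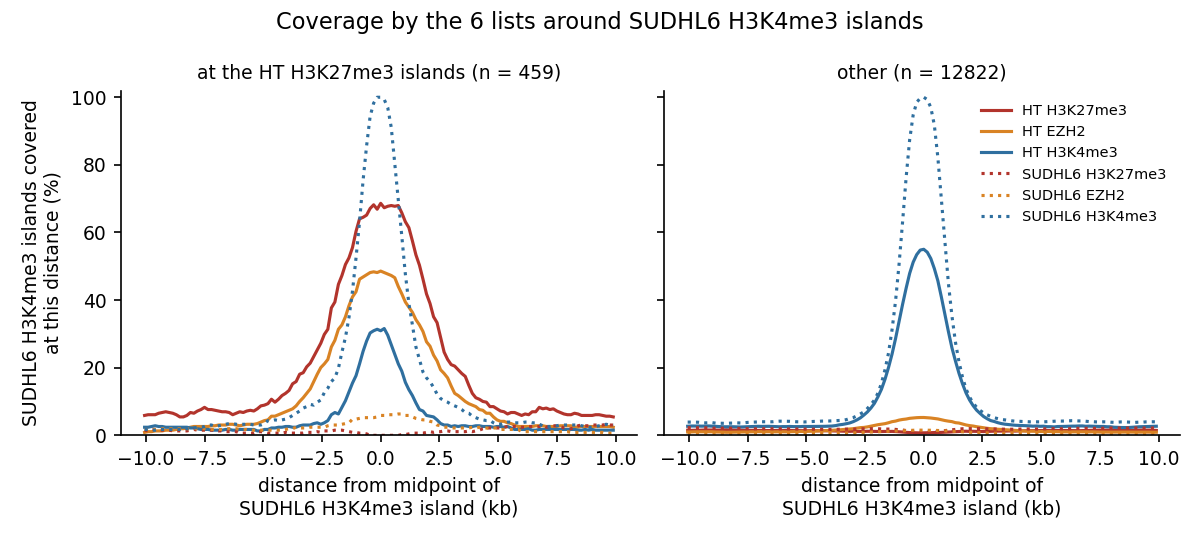
Share of SUDHL6 H3K4me3 islands covered by each of the 6 lists (y axis, percent) against distance from their midpoint (x axis, kb), for the 459 islands at discordant HT H3K27me3 (left) and the 12822 others (right); solid lines are HT and dotted lines SUDHL6. At the midpoint HT H3K27me3, which chose the 459, covers 68.6% of the 459 and 0.733% of the others, HT EZH2 covers 48.6% of the 459 and 5.28% of the others, and HT H3K4me3 covers 30.9% of the 459 and 55.0% of the others.

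The discordant islands overlapped a SUDHL6 H3K4me3 island by rule but were usually not the same stretch. A discordant island shared a median of 1200 bp with SUDHL6 H3K4me3 (quartiles 750 and 1950 bp, range 150 to 7950 bp), which was a median of 46.1% of the discordant island and 66.7% of the H3K4me3 island. In 146 of the 472 pairs the H3K4me3 island lay inside the discordant island, in 72 the discordant island lay inside it, and in 254 their edges crossed. The midpoints were a median of 900 bp apart, a distance that the required overlap limits and that has no reference here. Among the 50% of islands that scored highest in each list, the median shared length was 2100 bp.

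They were somewhat wider, with higher scores, than the remaining HT-only islands. The median width was 2850 bp (quartiles 1800 and 4350 bp, range 450 to 9750 bp), against 2250 bp. Width also raises the odds of meeting another island, so it is tied to the rule. The score per kb had a median of 23.9 (quartiles 20.5 and 28.6), against 19.4 (17.1 and 22.5). The median discordant island stood at percentile 78.1 of all autosomal HT H3K27me3 islands by score per kb, and the median remaining island at percentile 44.9.

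A few islands lay at the borders of the rule. The 19 discordant islands that shared exactly 150 bp with SUDHL6 H3K4me3 held HT EZH2 in 8 cases and HT H3K4me3 in 10. Of 81 remaining HT-only islands that lay within 600 bp of a SUDHL6 H3K4me3 island without overlap, 17 held HT EZH2 and 18 HT H3K4me3. At the width limit, the nearest discordant islands were 9750, 9150 and 9000 bp wide, and the nearest outside were 10800, 10800 and 11250 bp. Only 9 islands of 10 kb or wider met the other conditions.

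Most discordant islands lay far from any H3K27me3 of SUDHL6. The nearest SUDHL6 H3K27me3 island was a median of 183 kb away, against 54.8 kb for the remaining HT-only islands. It was over 100 kb away for 283 of the 468 and within 5 kb for 32. At 1 island it touched the discordant island without overlap, so that the missing overlap there rests on an island edge. The 310 discordant islands without HT H3K4me3 were a median of 90.0 kb from the nearest HT H3K4me3.

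The site with the longest overlap of the opposed marks lay on chromosome 13, from 46956751 to 46964700. This HT H3K27me3 island of 7950 bp (score 212) lay wholly inside a SUDHL6 H3K4me3 island of 9600 bp (score 373), from 46956001 to 46965600. HT EZH2 covered 54.7% of it, and the nearest HT H3K4me3 island was 160 kb from the SUDHL6 one. The nearest SUDHL6 H3K27me3 was 503 kb away. The next SUDHL6 H3K4me3 islands by bases under discordant islands, with no HT H3K4me3, lay on chromosome 1 from 121134301 to 121140900 (5850 bp shared), chromosome 5 from 17215501 to 17221500 (5400 bp) and chromosome 16 from 89004601 to 89009550. The last of these was covered over its whole 4950 bp. HT EZH2 lay in each of these 4 sites.

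The 5 widest discordant islands each extended past the SUDHL6 H3K4me3 island they met, which was 750 to 3750 bp wide. The first, on chromosome 11 from 110162251 to 110172000 (9750 bp), held an HT H3K4me3 island of 1200 bp and, inside it, a SUDHL6 H3K4me3 island of 750 bp. HT EZH2 covered 67.7% of it and SUDHL6 EZH2 23.1%, so at this site EZH2 was found in both lines and H3K27me3 in HT. On chromosome 5, an island of 9150 bp from 54516151 to 54525300 also had H3K4me3 in both lines, and the nearest SUDHL6 H3K27me3 was only 1.05 kb away. On chromosome 6, an island of 8700 bp from 91001551 to 91010250 had no HT H3K4me3, 3750 bp of SUDHL6 H3K4me3 and 81.0% coverage by HT EZH2, with the nearest SUDHL6 H3K27me3 8273 kb away. On chromosome 1, an island of 8100 bp from 92947201 to 92955300 had the same layout, with 44.4% under SUDHL6 H3K4me3 and 87.0% under HT EZH2.

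The 5 discordant islands highest by score per kb were 1500 to 3300 bp wide. The highest score per kb, 50.8, belonged to an island of 1950 bp on chromosome 10, from 12391951 to 12393900, which lay wholly inside SUDHL6 H3K4me3 and had neither HT EZH2 nor HT H3K4me3. Chromosome 12 held the next, from 76423951 to 76427250, with a score of 49.1 per kb and 72.7% under HT EZH2. The fifth, on chromosome 6 from 37138201 to 37140000, lay inside a SUDHL6 H3K4me3 island of 7650 bp with a score of 568, and inside an HT EZH2 island of 4500 bp. None of the 5 islands highest by this measure held HT H3K4me3.

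SUDHL6 EZH2 without SUDHL6 H3K27me3 was seen at 32 discordant islands, and HT EZH2 was present at 25 of them. The longest overlap was on chromosome 9, from 70400251 to 70405350, where EZH2 of both lines covered the whole 5100 bp. Next came chromosome 6 from 31367401 to 31372650, with 68.6% under HT EZH2 and 88.6% under SUDHL6 EZH2, and the nearest SUDHL6 H3K27me3 8.25 kb away. On chromosome 12 from 42875101 to 42880350 65.7% lay under HT EZH2 and 77.1% under SUDHL6 EZH2. In the 5 islands with most SUDHL6 EZH2, HT EZH2 was present and HT H3K4me3 was not.

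The 3 discordant islands with most HT H3K4me3 lay within 5 Mb of the longest stretch of their chromosome without any island in the 6 lists. On chromosome 9, whose longest such stretch ran from 46903201 to 65620650, an island from 69781651 to 69789300 was 64.7% under HT H3K4me3, 100% under HT EZH2 and 88.2% under SUDHL6 H3K4me3. Another, from 42741901 to 42747900, was 80.0% under HT H3K4me3 and wholly under SUDHL6 H3K4me3. On chromosome 1, the stretch ran from 121476151 to 142548600, and the island with most HT H3K4me3 lay before it, from 120584551 to 120590850, wholly under HT H3K4me3. The islands named above on chromosome 9 from 70400251 and on chromosome 1 from 121134301 also lay within 5 Mb of these stretches. On both chromosomes the stretch spans the centromere, whose flanks are known for repeated sequence in which short reads are hard to place, and input was not used here, so enrichment there was not checked. Within 5 Mb of the longest stretch of each autosome lay 44 discordant islands, or 9.40% (6.91 to 12.4%), and 7.13% (6.68 to 7.59%) of the remaining ones. Without the islands within 5 Mb of these stretches, the share of discordant islands with HT EZH2 was 54.0% and that with HT H3K4me3 was 34.0%. On some autosomes the longest stretch was not at the centromere, so these shares still include islands beside centromeres. On chromosome 2 it ran from 77577301 to 83318100, and the discordant island from 90441001 to 90444150, wholly under HT H3K4me3, was kept.

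The discordant islands were spread over all 22 autosomes and lay near chromosome ends about as often as the remaining HT-only islands, with overlapping intervals. Chromosome 1 had the most, 57, and chromosomes 19 and 22 the fewest, 7 each, numbers that also follow how many HT-only islands a chromosome had. As a share of those, they were 3.07% on chromosome 1, 2.99% on 19 and 2.45% on 22, against 3.57% over all. The highest such share was 8.17% on chromosome 4 (21 of 257) and the lowest 1.98% on chromosome 5 (19 of 959). Relative to SUDHL6 H3K4me3, discordant islands met 7.07% of the islands on chromosome 13 and 0.937% of those on chromosome 19. HT EZH2 was present at 25 of 34 discordant islands on chromosome 6 and at 1 of 7 on chromosome 22. The outer 10 Mb of the autosomes held 13.5% (10.5 to 16.9%) of the discordant islands and 13.95% (13.4 to 14.6%) of the remaining ones.

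**Figure D5:**
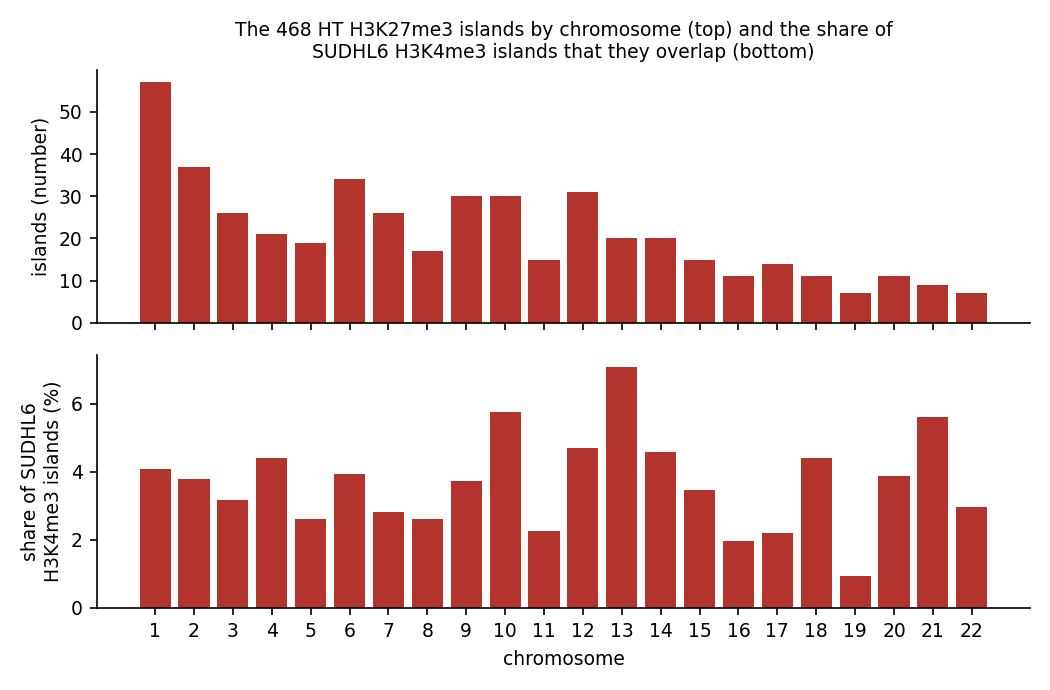
Number of discordant HT H3K27me3 islands per autosome (top) and the share of the autosomal SUDHL6 H3K4me3 islands that they overlap (bottom, percent). The number is highest on chromosome 1 (57), and the share is highest on chromosome 13 (7.07%) and lowest on chromosome 19 (0.937%).

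The nearest other discordant island was a median of 1112 kb away (quartiles 404 and 2878 kb). This spacing was not measured for any other set, so it is a description only. The discordant islands filled 214 windows of 10 Mb, of which 91 held 1 and 64 held 3 or more. The fullest window, from 40 to 50 Mb of chromosome 13, held 10 among its 89 HT-only islands, and 6 of the 10 had HT EZH2. Over all autosomes, 3.57% of HT-only islands were discordant. In that window H3K27me3 covered 235 kb in HT and 18.8 kb in SUDHL6, and H3K4me3 covered 119 kb in HT and 144 kb in SUDHL6. The window from 140 to 150 Mb of chromosome 1 held 7 among 65 HT-only islands, with 421 kb of H3K4me3 in HT and 813 kb in SUDHL6. The next 4 windows held 6 each, among 43 HT-only islands on chromosome 6, 14 on 7, 33 on 9 and 85 on 12. HT EZH2 was present at 5 of the 6 from 130 to 140 Mb of chromosome 6, at 6 of 6 from 60 to 70 Mb of chromosome 7, at 1 of 6 from 0 to 10 Mb of chromosome 9 and at 3 of 6 from 100 to 110 Mb of chromosome 12. The longest island-free stretch of the chromosome ended inside the windows of chromosomes 1 and 7, at 142548600 and 61065750. Enrichment beside these stretches was not checked against input. Copy number of chromosome segments was not measured, and its part in these windows was not tested.

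The same rule with the lines exchanged gave a smaller set. SUDHL6 H3K27me3 islands over HT H3K4me3 without HT H3K27me3 numbered 210, and SUDHL6 EZH2 lay at 14.8% (10.3 to 20.3%) of them, against 5.65% (5.18 to 6.15%) of the 8949 remaining SUDHL6-only islands. The SUDHL6 EZH2 list was shorter than the HT list (1506 against 2523 islands), so the EZH2 shares of the 2 directions are set side by side only. The 210 lay below the 275 to 386 found after the 8 moves, whereas the 468 lay above theirs. Moved islands were not screened again for H3K27me3 of the other line, so the moved counts follow a looser rule. The outer 10 Mb held 34.8% (28.3 to 41.6%) of these SUDHL6 islands, against the 13.5% for the discordant HT islands. That share was not computed for the 8949 remaining SUDHL6-only islands, so it cannot be called particular to the 210.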

How the data were processed

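The authors deposited 1 list of enriched islands per library, called with SICER on hg19 per the submitters' processing notes. Per the file names, windows were 150 bp, gaps up to 450 bp were bridged and the FDR was set at 1E-7. The aligner, the SICER version and the control are not given in the sources used here, and the sequencing depth is unknown. The deposited score of each island is a whole number whose meaning was not given. The names of the H3K27me3 lists are tagged "norm" and those of the others "uniqnorm", without explanation, so scores were compared only within a list. The 2 input samples were not used here.

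Islands were compared by overlap of 1 bp or more. Positions count from 1, and widths are end + 1 - start. Shares have exact (Clopper-Pearson) 95% intervals for counting error. With 1 library per line and antibody, no p-value was computed. Islands were moved by 0.5, 1, 1.5 and 2 Mb to either side, going round at the first and last island of a chromosome, and chromosome ends were taken from these. Named regions are among the 5 first by width, score per kb or bases shared with each list. Up to 3 windows of 10 Mb were to be named, with ties by chromosome and start, and all 4 tied for the third place are given. Members and measures were chosen with earlier results of these data known. Planned counts of gene starts needed hg19 gene positions and were not run. The steps were checked on simulated islands. Python 3.11.15, numpy 2.4.6, pandas 2.3.3, scipy 1.17.1 and matplotlib 3.10.9 were used.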

Additional observations from a re-analysis of the deposited data

How the results depend on the processing

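Each of 8 values was recomputed under 7 planned settings, and under 1 chosen after the data were seen that leaves out islands within 5 Mb of the longest island-free stretch of each autosome. Of the 64 values, 51 stayed within 1.5 times the count or within the 95% interval of the value as reported. An overlap of 50% of the island left 223 discordant islands, with 21.5% holding HT H3K4me3, a median width of 2250 bp, 1650 bp shared with SUDHL6 H3K4me3 and HT H3K4me3 at 26.0% of the SUDHL6 H3K4me3 sites. It was asked both in choosing the islands and in counting HT H3K4me3. Keeping the 50% of islands that scored highest in each list left 186, with a median width of 3600 bp, 2100 bp shared, 15.6% with HT H3K4me3, 62.4% with HT EZH2, 10.2% in the outer 10 Mb and HT H3K4me3 at 19.5% of the sites. That setting also shortens the lists that can be met. A limit of 5 kb gave a median width of 2400 bp, as its construction requires. Under every setting the HT EZH2 share of the remaining HT-only islands was between 3.78 and 6.56%. No paired analysis was possible because each line and antibody has 1 library and no result comes from a test. Unknown depth and the lack of replicates limit what a missing island can show about the mark.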

Other observations

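Chromosome X was outside the rule. It had 51 HT H3K27me3 islands, of which 8 met the other conditions, and HT EZH2 was present at 4 of these and HT H3K4me3 at 0.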
